A study of Homo sapiens with 6 samples.

Results

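The 77 genes described here encode the core and linker histones of human cells, with their variants. They were chosen by symbol: every row of the deposited table whose symbol starts with HIST1H, HIST2H, HIST3H, HIST4H, H1F, H2AF, H2BF or H3F was taken, which gave 77 of the 16376 genes in the table. Of these, 63 carry a HIST symbol and are called clustered below, because nearly all lie in gene clusters on chromosomes 6 and 1, and 14 are variant genes outside these clusters. Genes of histones outside these symbol groups, such as CENPA, are not members. RNA came from HOS, an established human line grown from an osteosarcoma, a malignant bone tumour. Libraries of 3 samples treated for 24 h with Agrimol B, a phloroglucinol compound of agrimony plants, were compared with libraries of 3 control samples labelled as having no treatment. All 6 share the HOS line and the genotype label WT. The dose of Agrimol B and any solvent given to the control cells are not given in these sources. No label calls the replicates separate cultures, so that p-values may measure technical spread only.

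Core histones H2A, H2B, H3 and H4 form the protein spool around which DNA is wound, and linker histone H1 binds the DNA where it enters and leaves the spool. Clustered genes are replication-dependent: they are transcribed mainly in S phase to package new DNA, and their mRNAs classically end not in a poly(A) tail but in a conserved stem-loop, which the stem-loop binding protein SLBP holds. Variant genes are expressed outside S phase as well, have polyadenylated mRNAs and supply the histones that replace the canonical ones at particular places. The mRNA library kit named in the labels takes RNA by its poly(A) tail, so a clustered gene was seen here only as far as its RNA was captured that way, and any change in that captured share was not tested.

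The 3′ ends of the transcripts are shown first because the direction of change among clustered genes is set against them below. The pattern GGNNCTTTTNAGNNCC, searched on the transcript strand, was present in an annotated GENCODE 29 transcript of 30 of the 63 clustered genes and of 1 of the 14 variant genes, H2AFX. It occurred in 37 of 83001 protein-coding transcripts of non-histone genes (0.045%). Annotated transcripts of many clustered genes without a match are short, such as 312 bases for HIST1H4D and 381 for HIST1H2BI. These may stop before the 3′ end, so a missing match does not show that a gene lacks the stem-loop. The most frequent form, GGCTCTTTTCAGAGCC, was found in 17 genes. Coordinates are on GRCh38 (hg38), capitals mark the stem-loop, letters run 5′ to 3′ on the transcript, and each site lies in an exon, beyond the coding part in the RNA. The first 5 sites belong to genes that changed in different directions, and the sixth is the only one of a variant gene.
HIST2H2BE, chr1:149886183-149886208, minus strand: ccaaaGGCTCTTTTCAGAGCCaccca
HIST1H2AG, chr6:27133510-27133535, plus strand: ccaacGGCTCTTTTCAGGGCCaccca
HIST4H4, chr12:14770719-14770744, minus strand: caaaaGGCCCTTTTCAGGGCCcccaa
HIST1H2BN, chr6:27839085-27839110, plus strand: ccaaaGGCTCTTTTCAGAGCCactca
HIST1H2BL, chr6:27807479-27807504, minus strand: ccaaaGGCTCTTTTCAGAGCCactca
H2AFX, chr11:119094893-119094918, minus strand: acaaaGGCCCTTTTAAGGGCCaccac
After the stem-loop, 1729 bases follow in the annotated HIST2H2BE transcript, 1761 in that of HIST1H2AG, 1510 in that of HIST4H4 and 1044 in that of H2AFX, against 40 in that of HIST1H2BL. The printed HIST1H2BN site is followed by 377 bases. HIST2H2BE and HIST1H2BL thus hold the same 16 bases of stem-loop but annotated ends of very different length.

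Values are FPKM (fragments scaled by the length of the transcript and the size of the library). The number of reads per library is unknown from these values, so no counting error can be given, and the length used for each gene is not given, so levels are compared between genes only roughly. Total FPKM lay between 352990 and 359537 per library and 11993 to 12134 genes reached 1 FPKM. Ratios among the lowest values put the depth of the other libraries at 0.99 to 1.19 times that of the first control library, with Agrimol B libraries 2 and 3 deepest. Of the bone and mesenchymal markers, COL1A1 (286 to 436 FPKM over the 6 libraries) and VIM (532 to 712 FPKM) were high, RUNX2 lay at 4.75 to 8.16 FPKM and BGLAP was at most 0.221 FPKM. Of the epithelial markers, KRT18 (143 to 211 FPKM) and KRT8 (112 to 366.5 FPKM) were high, EPCAM lay at 12.8 to 14.7 FPKM and CDH1 was at most 0.439 FPKM, while the blood marker PTPRC and the endothelial marker PECAM1 did not exceed 0.0578 FPKM. In bulk RNA, fewer cells expressing a gene and less of its RNA per cell cannot be told apart.

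Of the 77 genes, 34 averaged 1 FPKM or more across all 6 libraries and were tested with limma on log2(FPKM + 1) as part of the 12143 genes tested, and 43 were not. With Agrimol B, 21 of the 34 changed at an adjusted p under 0.05 (Benjamini-Hochberg over all tested genes), 13 rising and 8 falling. The share of all tested genes called was 52%, with 30.6% higher and 21.4% lower, so the histone share of 61.8% is near the background. The median log2 difference (Agrimol B minus control) was 0.14 over the 34 genes and 0.07 over all tested genes. All 3 Agrimol B values lay on 1 side of all 3 control values in 23 of the 34 genes, against 62.2% of all tested genes. In 15 of the 23 the Agrimol B values were the higher ones (36.2% of all tested genes) and in 8 the lower ones (26%). Without the third control library 7 were called higher and 5 lower, without the second 8 and 5, and without the first or the third Agrimol B library 9 and 5. Among the tested members, 6 had a group mean under 1 FPKM and 4 of these were called (HIST1H2BN, HIST1H2BL, HIST1H2AJ and HIST4H4), which entered the test through the group in which they were high. Calls of 12 genes were kept under every alternative setting in which the gene was tested: H1F0, H1FX, H2AFJ, H2AFV, H2AFX, H3F3A, HIST1H1C, HIST1H2AG, HIST1H2BL, HIST1H2BN, HIST2H2BE and HIST4H4. A fold below divides the mean FPKM of 1 group by that of the other, and means are given ± SD (n = 3 libraries per group).

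The linker histones showed the largest rise among the highly expressed members. H1F0 encodes H1.0, a linker histone that accumulates in resting and differentiated cells. Its level was 105, 102 and 102 FPKM in the control libraries and 269, 275 and 269.8 FPKM in the Agrimol B libraries. The groups lay far apart, and the spread within each was small. H1F0 (chr22:37805093-37807436, plus strand) rose 2.63-fold, from 103 ± 1.51 to 271 ± 2.99 FPKM (log2 difference 1.39, SE 0.031; limma adjusted p = 6.74e-06). H1FX, which encodes the replication-independent linker histone H1X, was at 101, 103 and 101 FPKM in control cells and at 141, 143 and 141 FPKM with Agrimol B. It rose 1.40-fold (log2 difference 0.48; limma adjusted p = 0.000102). An antisense gene, H1FX-AS1, overlaps H1FX (chr3:129314771-129316277, minus strand), and no source used here says whether the authors counted by strand.

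The clustered linker gene went the other way. HIST1H1C encodes H1.2, a main somatic linker histone, and was the only clustered H1 gene of 6 that reached the 1 FPKM mean. It stood at 38.1, 41.6 and 41.8 FPKM in control libraries and at 33.2, 32.5 and 29.7 FPKM in Agrimol B libraries, with no overlap. HIST1H1C (chr6:26055787-26056428, minus strand) fell 1.28-fold, from 40.5 ± 2.07 to 31.8 ± 1.86 FPKM (log2 difference -0.34, SE 0.062; limma adjusted p = 0.00491). Summed over the clustered and variant H1 genes, the make-up of linker histone RNA moved: H1F0 was 41.3% to 42.9% of the summed H1 FPKM in control libraries and 60.5% to 61.0% with Agrimol B. HIST1H1C went from 15.6% to 17.0% of the sum to 6.71% to 7.46%, and H1FX from 41.0% to 41.5% to 31.6% to 32.0%, although its own level rose. These shares are described without a test. Summed FPKM of the variant H1 genes was 204 in control and 413 ± 3.88 with Agrimol B (2.02-fold).

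**Figure D1:**
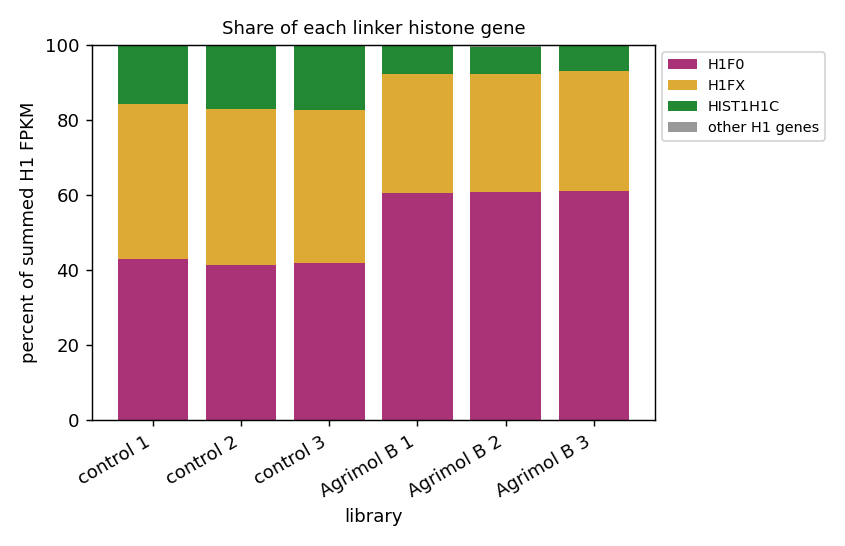
Shares of summed H1 FPKM (y axis, percent) held by the linker histone genes in each of the 6 libraries (x axis). H1F0 held 41.3% to 42.9% in control libraries and 60.5% to 61.0% with Agrimol B, while the HIST1H1C share was lower in all 3 Agrimol B libraries than in any control library.

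Among the H2A variants, falls and rises stood side by side. H2AFX encodes H2A.X, the variant that is phosphorylated around DNA double-strand breaks, and its mRNA is known to exist in a stem-loop form and a polyadenylated form. It was measured at 214, 216 and 207 FPKM in control cells and at 128, 132 and 133 FPKM with Agrimol B, and the groups did not overlap. H2AFX (chr11:119093854-119095467, minus strand) fell 1.62-fold, from 212 ± 4.89 to 131 ± 2.49 FPKM (log2 difference -0.69, SE 0.035; limma adjusted p = 5.02e-05). H2A.Z is encoded by H2AFZ and H2AFV and marks promoters and enhancers. H2AFV (chr7:44826791-44848083, minus strand) was at 54.8, 58.2 and 58.4 FPKM in control and at 50.5, 49.8 and 50.8 FPKM with Agrimol B, and fell 1.14-fold (log2 difference -0.18; limma adjusted p = 0.0118). H2AFZ (chr4:99948086-99950388, minus strand), the histone gene with the highest mean over all 6 libraries, was at 276, 394 and 351 FPKM in control libraries and at 235, 285 and 240.4 FPKM in Agrimol B libraries. The first control library lay below the second Agrimol B library, so the groups overlap. Its log2 difference of -0.41 did not pass the test (limma adjusted p = 0.0521), and over the alternatives the adjusted p ranged from 0.0109 (without the first control library) to 0.138. It was also under the threshold without the second Agrimol B library (adjusted p = 0.0476) and with median-ratio scaling (adjusted p = 0.0334).

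H2AFJ encodes H2A.J, a variant known to build up in senescent fibroblasts. It was at 39.1, 42.7 and 37.3 FPKM in control libraries and at 46.3, 49.7 and 50.4 FPKM with Agrimol B, without overlap. H2AFJ (chr12:14774383-14778002, plus strand) rose 1.23-fold (log2 difference 0.29, SE 0.064; limma adjusted p = 0.0103). Its share of summed H2A FPKM was 4.85% to 5.71% in control and 7.99% to 8.64% with Agrimol B, while that of H2AFX was 26.5% to 31.3% and 21.2% to 22.8%. The macroH2A genes encode variants with a large extra domain that are enriched on the inactive X chromosome and other silent chromatin. H2AFY2 (chr10:70052796-70112280, plus strand) was at 13.3, 14.4 and 13.4 FPKM in control and 16.6, 15.7 and 15.7 FPKM with Agrimol B, a 1.17-fold rise (limma adjusted p = 0.0153). This call was lost with median-ratio scaling (adjusted p = 0.0526), with quantile normalization (adjusted p = 0.0784) and without the third control library (adjusted p = 0.05025). H2AFY (chr5:135333900-135399914, minus strand) had a log2 difference of -0.18 with overlapping groups (limma adjusted p = 0.128). H2AFB1 and H2AFB3, whose variant H2A.B is known from testis, stayed under 1 FPKM and were not tested.

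The genes of the replacement histone H3.3, which is laid down independently of replication, differed in how well they could be measured. H3F3A (chr1:226061851-226072001, plus strand) was at 184, 173 and 187 FPKM in control libraries and at 152, 149 and 146 FPKM with Agrimol B. The groups did not overlap and H3F3A fell 1.22-fold (log2 difference -0.28, SE 0.042; limma adjusted p = 0.00224). Of its 100-base transcript windows, 10.4% are identical to windows of the pseudogenes H3F3AP4 and H3F3AP6, so part of its reads could have been assigned elsewhere. H3F3B (chr17:75776434-75785893, minus strand) was at 151, 52.8 and 89.5 FPKM in control and at 108, 178 and 91.9 FPKM with Agrimol B. The libraries of each group overlapped widely, with a ratio of highest to lowest of 2.86 among controls. The pooled SD of H3F3B on the log2 scale was 0.63, larger than that of 99.2% of the 1297 genes that averaged 50 FPKM or more. Its log2 difference of 0.43 did not pass the test (limma adjusted p = 0.429), and without the second control library it was 0.05 (adjusted p = 0.915). H3F3C was at most 0.0289 FPKM.

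**Figure D2:**
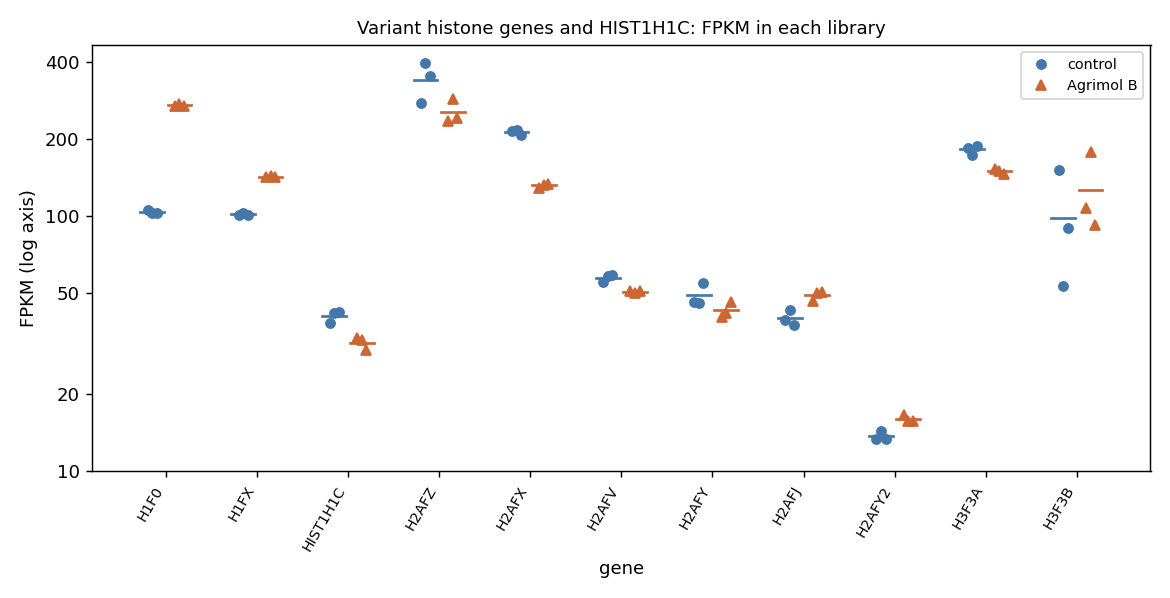
FPKM of the tested variant histone genes and HIST1H1C in each library (y axis, log scale; circles control, triangles Agrimol B, short lines the group means). H1F0 and H1FX lie higher and H2AFX and H3F3A lower in all 3 Agrimol B libraries, while the H3F3B values of the groups are widely scattered and overlap.

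Of the clustered genes, 24 of 63 were tested, and 9 rose and 5 fell, against 30.6% higher and 21.4% lower of all tested genes. Apart from HIST1H2BK, HIST1H1C and HIST3H2A, no clustered gene exceeded 8.54 FPKM in a library. These 3 together made up 76.5% to 77.4% of the summed clustered FPKM in control libraries and 72.6% to 73.9% with Agrimol B. The sum over the 63 genes was 276, 290.04 and 298 FPKM in control and 267, 285 and 271 FPKM with Agrimol B, so the groups overlap. After median-ratio scaling it was 281 to 305 in control and 259.5 to 278 with Agrimol B, which do not overlap. Without the 3 highest genes the deposited sum went the other way, 66.3 ± 3.55 in control and 73.6 ± 4.18 FPKM with Agrimol B. These groups overlap as well (63.2 to 70.2 and 69.7 to 78.0 FPKM). The sum over the 14 variant genes was 1196 ± 10.2 and 1230.0 ± 76.1 FPKM as deposited, and 1219 ± 13.3 and 1197 ± 77.7 after median-ratio scaling, so the order of these means turns with the scaling. Variant genes held 80.1% to 81.1% of all histone FPKM in control libraries and 81.4% to 82.2% with Agrimol B. These sums lean on the lengths used for FPKM and on which transcripts the kit captured.

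Among the tested clustered genes, HIST1H2BN and HIST1H2BL differed most, and each passed the filter on low values only through the group in which it was high. HIST1H2BN was at 0.429, 0.898 and 0.459 FPKM in control libraries and at 3.38, 2.64 and 3.07 FPKM with Agrimol B. It was low in every control library and rose 5.09-fold, from 0.595 ± 0.263 to 3.03 ± 0.372 FPKM (log2 difference 1.34, SE 0.14; limma adjusted p = 0.000484). Its GENCODE gene model (chr6:27837760-27865798, plus strand) is long and spans HIST1H2AL on the same strand and HIST1H2AK on the other, so reads of those genes may be counted in it. HIST1H2BL, in contrast, was at 1.95, 2.04 and 1.87 FPKM in control and at 0.424, 0.701 and 0.667 FPKM with Agrimol B. HIST1H2BL (chr6:27807444-27807931, minus strand) fell 3.27-fold, with no overlap (log2 difference -0.89, SE 0.088; limma adjusted p = 0.000451). With a pseudocount of 0.1 in place of 1, the log2 difference of HIST1H2BL was -1.58 and that of HIST1H2BN 2.23. The same change moved those of HIST1H2AG to 0.94, HIST1H2AJ to -0.68, HIST2H4B to 0.73 and HIST4H4 to 1.11, and ended no call.

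HIST2H2BE, at 2.03, 2.17 and 2.16 FPKM in control cells, was at 3.68, 4.37 and 4.54 FPKM with Agrimol B. HIST2H2BE (chr1:149884459-149886652, minus strand) rose 1.98-fold (log2 difference 0.73, SE 0.080; limma adjusted p = 0.00068). HIST1H2BJ rose 1.45-fold, from 5.24 ± 0.972 to 7.57 ± 0.785 FPKM (adjusted p = 0.0253), and HIST1H2BC 1.31-fold, from 1.92 ± 0.0968 to 2.51 ± 0.217 FPKM (adjusted p = 0.0211). The HIST1H2BJ call was kept in 7 of 13 alternatives. It was lost with quantile normalization (adjusted p = 0.052), with a replicate block and without control library 2 or 3 or Agrimol B library 2 or 3 (adjusted p = 0.0582, 0.0672, 0.0773 and 0.0724). That of HIST1H2BC was lost without control library 2 or 3 or Agrimol B library 1 or 2 (adjusted p = 0.064, 0.06, 0.0607 and 0.0673). HIST1H2BK, the most abundant clustered gene, was at 154, 162 and 164 FPKM in control and at 141, 151 and 144 FPKM with Agrimol B, which did not overlap. It fell 1.10-fold (log2 difference -0.14, limma adjusted p = 0.0396), a call kept in 7 of 13 alternatives. The call was lost without control library 2 or 3 or Agrimol B library 1 or 3 (adjusted p = 0.106, 0.112, 0.102 and 0.0954). It was also lost with quantile normalization and with no variance trend, and the adjusted p reached 0.163 over the alternatives. The annotated HIST1H2BK transcript is only 381 bases (chr6:27146418-27146798, minus strand), and 28.4% of its windows are identical to H2BFS, so its level is uncertain. HIST1H2BO (2.12 to 3.04 FPKM, adjusted p = 0.0586), HIST1H2BD (5.52 to 5.99 FPKM, adjusted p = 0.357) and HIST1H2BG (1.06 to 1.17 FPKM, adjusted p = 0.368) did not pass, the first value being the control mean. Without Agrimol B library 2, HIST1H2BO was under the threshold (adjusted p = 0.0306).

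Of 16 clustered H2A genes, 9 were tested, and 2 rose and 1 fell. The share called was 33.3%, against 52% of all tested genes (30.6% higher and 21.4% lower). HIST1H2AG was at 1.02, 0.839 and 1.20 FPKM in control libraries and at 1.90, 2.26 and 1.98 FPKM with Agrimol B. HIST1H2AG (chr6:27133042-27135291, plus strand) rose 2.00-fold without overlap (log2 difference 0.59, SE 0.091; limma adjusted p = 0.00262). HIST3H2A (chr1:228456979-228457873, minus strand) went from 21.3 ± 0.561 to 23.3 ± 0.392 FPKM, a 1.09-fold rise (adjusted p = 0.0475) that was kept in 3 of 13 alternatives. Leaving out any 1 library ended that call (adjusted p between 0.058 and 0.123). Median-ratio scaling, quantile normalization, no variance trend and a replicate block ended it as well, and the adjusted p reached 0.299 over the alternatives. HIST1H2AJ fell 1.68-fold, from 1.58 ± 0.354 to 0.94 ± 0.165 FPKM (adjusted p = 0.0317). Of its windows, 80.9% are shared with HIST1H2AI, whose mean went the other way, from 0.783 to 1.30 FPKM, with no call. Reads may have been divided between these genes, so a fall of HIST1H2AJ itself is uncertain. The HIST1H2AJ call was lost without control library 2 or 3 or Agrimol B library 1 or 3 (adjusted p = 0.0725, 0.0729, 0.0913 and 0.0765). HIST1H2AC was at 2.98, 3.09 and 3.15 FPKM in control and at 6.43, 3.51 and 4.21 FPKM with Agrimol B. Its groups did not overlap, but the Agrimol B libraries spread widely and it did not pass (adjusted p = 0.0766; 0.02985 without Agrimol B library 2). HIST2H2AC (5.29 ± 1.81 and 3.73 ± 1.32 FPKM, adjusted p = 0.243), HIST2H2AA3 (6.19 and 5.59 FPKM, adjusted p = 0.224), HIST2H2AA4, HIST1H2AE and HIST1H2AI did not pass either, and HIST2H2AA3 and HIST2H2AA4 are near-identical copies.

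All 4 tested H4 genes were called, 3 rising and 1 falling, against 52% of all tested genes (30.6% higher and 21.4% lower). With 4 genes this is not read as a trait of H4. Only HIST4H4 kept its call in every alternative in which it was tested, and it passed the filter through its Agrimol B group. HIST1H4C was at 5.32, 6.22 and 8.54 FPKM in control and at 3.51, 5.08 and 4.06 FPKM with Agrimol B. HIST1H4C (chr6:26103876-26104310, plus strand), usually an abundant H4 gene of S phase, fell 1.59-fold (log2 difference -0.55, SE 0.18; limma adjusted p = 0.0437), with 8 of 13 alternatives keeping the call. Without control library 2 or 3 or Agrimol B library 1 or 3 it was lost (adjusted p = 0.0804, 0.0872, 0.1215 and 0.106), and also with no filter on low values. HIST4H4, a single H4 gene outside the clusters, was at 0.499, 0.970 and 0.510 FPKM in control and at 1.39, 1.85 and 1.26 FPKM with Agrimol B. It rose 2.27-fold (chr12:14767999-14771131, minus strand; log2 difference 0.60, SE 0.14; limma adjusted p = 0.015). HIST2H4B rose 1.74-fold, from 1.011 ± 0.156 to 1.76 ± 0.411 FPKM (adjusted p = 0.0286), but all of its windows are shared with HIST2H4A, so the copies cannot be told apart. Its call was lost without the same 4 libraries (adjusted p = 0.0691, 0.084, 0.0847 and 0.0847). HIST1H4H rose 1.27-fold, from 2.12 ± 0.145 to 2.68 ± 0.293 FPKM (adjusted p = 0.0468), a call kept in 2 of 12 alternatives. It was ended by leaving out any 1 library (adjusted p between 0.0578 and 0.122). No filter, median-ratio scaling, quantile normalization and a replicate block ended it as well. Of the 11 clustered H3 genes only HIST1H3H was tested, at 1.27 ± 0.193 and 1.02 ± 0.284 FPKM (adjusted p = 0.291).

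**Figure D3:**
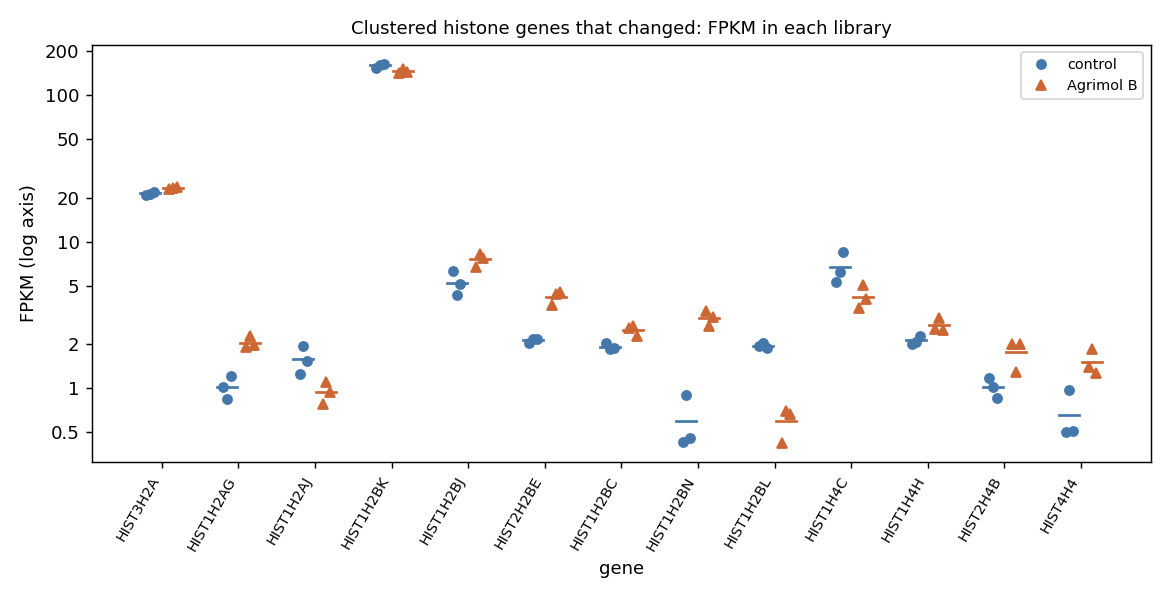
FPKM of the clustered histone genes that changed, HIST1H1C left out, in each library (y axis, log scale; circles control, triangles Agrimol B, short lines the group means). HIST1H2BN rises from under 1 to about 3 FPKM and HIST1H2BL falls from about 2 to under 1 FPKM.

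The 43 genes that were not tested comprise 39 clustered genes, among them 5 of 6 H1, 10 of 11 H3 and 9 of 13 H4 genes, and 4 variant genes. No value of theirs exceeded 1.40 FPKM, and 14 were listed at 0 in at least 1 library. The highest means were those of HIST1H4K, HIST1H2AM and HIST1H3D (0.876, 0.858 and 0.796 FPKM). When the filter on low values was dropped, 6 of the 43 were called, where 42% of all genes and 19.5% of the 4233 genes under the filter were called. HIST1H1E (0.288 to 0.913 FPKM, control mean first) and HIST2H2BF (0.311 to 0.623 FPKM) were higher with Agrimol B, and HIST1H2AL, HIST1H2BE, HIST1H3G and HIST1H4L were lower, HIST1H4L being listed at 0 in all 3 Agrimol B libraries. These 6 were picked after their values were seen.

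**Figure D4:**
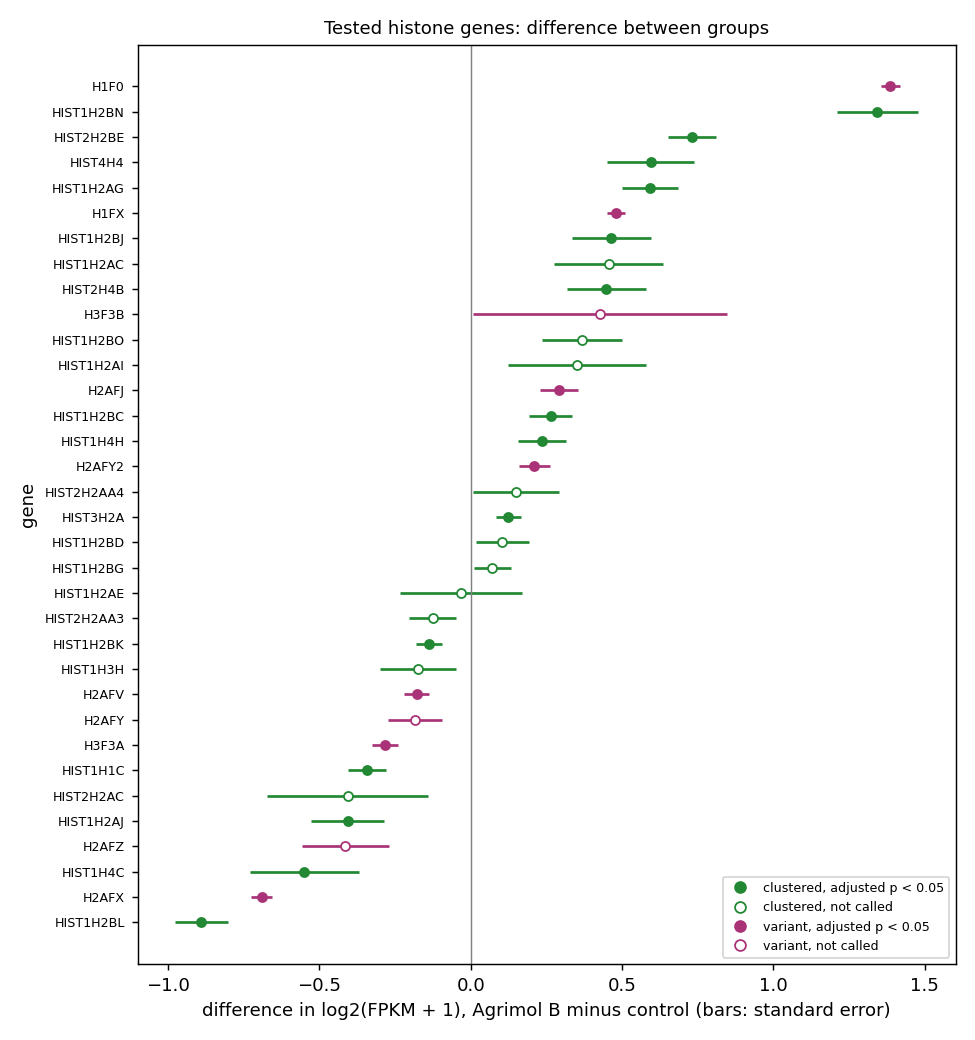
Log2 difference (Agrimol B minus control, on log2(FPKM + 1), x axis) of the 34 tested histone genes with the standard error as bars. Rises and falls occur in both classes, with HIST1H2BN and H1F0 at the high end and HIST1H2BL and H2AFX at the low end.

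Clustered genes were then divided by whether an annotated transcript carries a polyadenylation hexamer (AATAAA or ATTAAA) in its last 40 bases, other than before a stem-loop. This division was made after the values were seen and is given with no test. Such a signal was found in 22 of the 63 clustered and 13 of the 14 variant genes. Among the 13 tested clustered genes with the signal, 8 rose and 0 fell: HIST1H2AG, HIST1H2BC, HIST1H2BJ, HIST1H2BN, HIST1H4H, HIST2H2BE, HIST2H4B and HIST3H2A. Among the 11 without it, HIST4H4 rose and 5 fell, namely HIST1H1C, HIST1H2AJ, HIST1H2BK, HIST1H2BL and HIST1H4C. HIST1H1C, HIST1H2AJ, HIST1H2BK and HIST1H4C have 1 annotated transcript each, of 642, 387, 381 and 435 bases, without a stem-loop match. A signal beyond a stem-loop could not be found in these, so the group without a signal was in part set by short annotation. The background over all tested genes is 30.6% higher and 21.4% lower. In genes with both group means at 1 FPKM or more, the counts were 7 higher and 0 lower of 11 with the signal, and 0 higher and 3 lower of 7 without. The HIST2H2BE and HIST1H2BL ends printed above belong to either side and hold the same stem-loop letters. The gene that rose has a signal far downstream, and the gene that fell ends just after the loop. Other genes differ from this picture. In HIST2H2AA3 and HIST2H2AA4 the signal lies 13 bases after the loop, and neither was called. HIST1H2BG runs 1059 bases past its loop without the signal and was not called (log2 difference 0.07). HIST1H2AI and HIST1H2AE have the same stem-loop letters as HIST1H2BL, with 39 and 51 bases after the loop. They were not called (log2 differences 0.35 and -0.03), and 57.7% of the HIST1H2AI windows are shared with HIST1H2AJ. HIST2H2BE and HIST1H2BL were picked after the values were seen, and a part of the transcript end in the changes was not tested.

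All alternatives refit the same 6 libraries, so they do not test the division, and its counts varied between them. With the signal, 2 to 8 genes were higher over the 13 alternatives and 0 lower, except that 2 were lower when low genes were not filtered. Without the signal, 0 to 2 were higher and 2 to 6 lower. Without control library 2 or 3 the counts were 3 higher with the signal and 2 lower without it, and without Agrimol B library 1 or 3 they were 4 and 2. Of the 11 genes without a signal, 4 have no annotated transcript of 400 bases or more, so that a distal end may simply not be annotated. The same may hold for HIST1H1C and HIST1H4C, whose only annotated transcripts (642 and 435 bases) hold no match to the stem-loop pattern. Among the genes that fell, HIST1H1C, HIST1H2AJ, HIST1H2BK and HIST1H4C all lack such a match, so their annotated ends may be incomplete. HIST4H4, whose annotated transcript extends 1510 bases beyond its stem-loop without the hexamer in its last 40 bases, is the exception among the genes that rose.

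**Figure D5:**
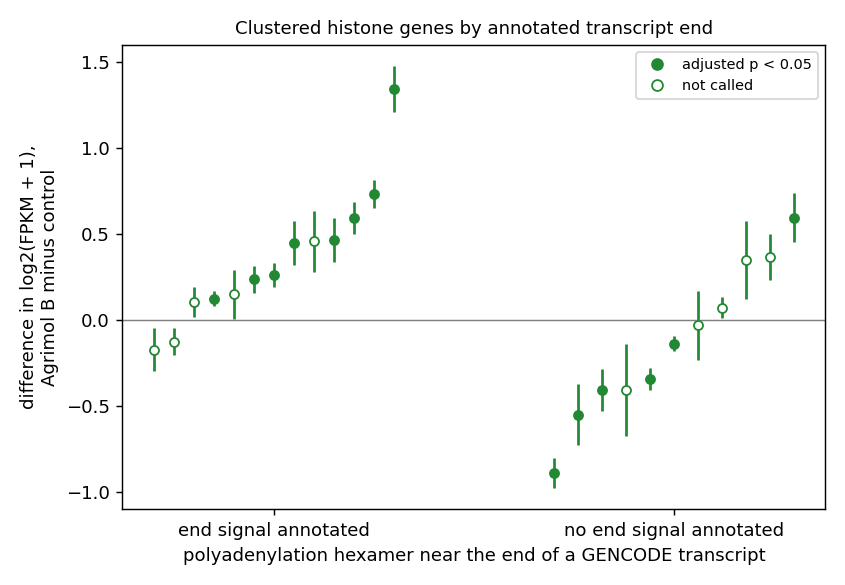
Log2 difference (Agrimol B minus control, y axis) of the 24 tested clustered genes, divided by an annotated 3′ polyadenylation signal (x axis), 1 point per gene. Of the 13 with a signal 11 lie above 0, and of the 11 without it 4 do.

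Many clustered histone genes lie head to head and share the DNA between their starts. In 8 pairs the RefSeq starts lay within 1000 bases of each other, 7 of an H2A with an H2B gene and 1 of HIST1H3F with HIST1H2BH. Only the 64 members with a RefSeq promoter were searched, so further pairs were missed. Among these are HIST1H2BC and HIST1H2AC, on opposite strands with GENCODE gene starts at chr6 positions 26123926 and 26124145. HIST1H2BC rose, and HIST1H2AC was higher without overlap but did not pass (log2 difference 0.46). The start-to-start sequences of 4 pairs are shown because the partners' changes can be read against 1 shared stretch. They come from RefSeq promoters on GRCh38.p14, minus strand, 5′ to 3′ towards the first gene named, and capitals mark ATTTGCAT (the octamer, bound by OCT1), CCAAT or TATAAA on either strand, where TATAAA and its reverse complement TTTATA can overlap.
HIST1H2BJ and HIST1H2AG, chr6:27132796-27133042: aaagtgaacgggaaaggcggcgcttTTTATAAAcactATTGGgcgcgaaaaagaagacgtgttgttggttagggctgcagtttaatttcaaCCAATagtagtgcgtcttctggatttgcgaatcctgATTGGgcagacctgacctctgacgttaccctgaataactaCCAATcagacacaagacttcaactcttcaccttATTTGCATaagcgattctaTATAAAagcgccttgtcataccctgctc
HIST2H2BE and HIST2H2AC, chr1:149886683-149886917: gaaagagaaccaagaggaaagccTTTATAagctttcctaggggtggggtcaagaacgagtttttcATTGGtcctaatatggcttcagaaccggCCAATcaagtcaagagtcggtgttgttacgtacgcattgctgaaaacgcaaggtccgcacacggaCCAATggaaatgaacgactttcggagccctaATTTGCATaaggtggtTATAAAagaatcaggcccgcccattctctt
HIST1H2BL and HIST1H2AI, chr6:27807930-27808172: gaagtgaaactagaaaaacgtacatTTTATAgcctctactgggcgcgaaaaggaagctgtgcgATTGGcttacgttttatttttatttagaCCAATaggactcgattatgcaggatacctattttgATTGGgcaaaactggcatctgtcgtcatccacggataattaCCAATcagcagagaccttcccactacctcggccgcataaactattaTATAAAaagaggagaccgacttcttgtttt
HIST1H2AK and HIST1H2BN, chr6:27838376-27838568: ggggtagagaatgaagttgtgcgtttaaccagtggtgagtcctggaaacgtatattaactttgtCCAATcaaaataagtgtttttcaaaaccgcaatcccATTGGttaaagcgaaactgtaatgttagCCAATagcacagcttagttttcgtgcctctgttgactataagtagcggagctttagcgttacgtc
In the 250 bases upstream of all 35116 RefSeq promoters, ATTTGCAT was present in 1.63%, CCAAT in 32% and TATAAA in 10.7%. CCAAT was found 4, 3, 4 and 3 times in these 4 stretches, in the order printed, and the octamer once in each of the first pair of stretches. A match is a description of letters and not a site of binding.

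Partners did not always move together. HIST1H2BJ and HIST1H2AG, with starts 248 bases apart, both rose, as given above. HIST2H2BE rose while its partner HIST2H2AC, 236 bases away, was at 3.67, 4.96 and 7.25 FPKM in control and at 3.01, 5.25 and 2.93 FPKM with Agrimol B, with overlapping groups and no call. HIST1H2BL fell while HIST1H2AI, 244 bases away, was at 0.783 ± 0.368 and 1.296 ± 0.634 FPKM with no call (adjusted p = 0.242). Of the HIST1H2AI windows, 57.7% are shared with HIST1H2AJ, so the level of HIST1H2AI is uncertain. HIST1H2BN rose, and its untested partner HIST1H2AK, 194 bases away, was at 0.546 and 0.808 FPKM. The difference between partners was not tested. In the other 4 pairs HIST3H2A rose and HIST1H2AJ fell, and no partner of these passed the test or was high enough to enter it.

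Genes that make and process histone mRNA were followed from a list of 18, all tested, of which 6 rose and 1 fell (background 30.6% and 21.4%; list median log2 difference 0.02, against 0.07 over all tested genes). NCBP2, the RNA-binding part of the nuclear cap-binding complex, rose 1.61-fold, from 34.3 ± 0.652 to 55.2 ± 4.25 FPKM (limma adjusted p = 0.000382). CPSF2, a subunit of the histone pre-mRNA cleavage complex, rose 1.46-fold (14.9 to 21.8 FPKM, adjusted p = 0.00025), and HINFP, a transcription factor of H4 genes, rose 1.40-fold (9.15 to 12.8 FPKM, adjusted p = 0.00105). UPF1, a helicase that takes part in histone mRNA decay, rose 1.25-fold (32.0 to 39.9 FPKM, adjusted p = 0.00218). The 1 gene that fell was the cleavage enzyme gene CPSF3 (1.13-fold lower, adjusted p = 0.0308), a call kept in 7 of 13 alternatives, and leaving out 1 library gave 0 to 3 lower genes on the list. SLBP, added here for its role, was at 48.8 ± 3.66 and 41.0 ± 6.51 FPKM and did not pass (adjusted p = 0.122).

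Of 14 chaperones that bring new histones to replicating DNA, 8 fell and 1 rose (background 21.4% and 30.6%; list median log2 difference -0.25, against 0.07 over all tested genes). CHAF1B, a subunit of chromatin assembly factor 1, fell 1.91-fold, from 9.92 ± 0.577 to 5.20 ± 0.120 FPKM (limma adjusted p = 0.000145). TONSL, which reads newly deposited histone H4, fell 1.74-fold (12.7 to 7.27 FPKM, adjusted p = 0.000149), and ASF1B, which carries H3 and H4, fell as well (28.8 to 19.2 FPKM, adjusted p = 0.000302). DNAJC9, a heat shock co-chaperone of H3 and H4, was the 1 that rose (16.5 ± 0.235 to 24.1 ± 5.75 FPKM, adjusted p = 0.0329), and its call was lost under 5 of 13 alternatives, among them the fits without each of the control libraries.

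Of 20 genes listed for histone chaperones and exchange outside replication, 7 rose and 7 fell (background 30.6% and 21.4%, list median log2 difference -0.01, against 0.07 over all tested genes). The list also holds CENPA, added here because it is a histone gene and not a chaperone. It was among those that fell (24.9 to 17.2 FPKM, limma adjusted p = 0.00867). VPS72, which delivers H2A.Z to the exchange complexes SRCAP and TIP60, rose 2.54-fold, from 23.9 ± 8.94 to 60.8 ± 8.44 FPKM (limma adjusted p = 0.00661). SPTY2D1, a chaperone of H3 and H4, rose 2.26-fold, from 11.2 ± 0.465 to 25.3 ± 0.274 FPKM (adjusted p = 3.2e-05). HJURP, which loads the centromeric histone CENP-A, fell 2.22-fold (20.6 ± 7.69 to 9.30 ± 0.896 FPKM, adjusted p = 0.0125). DEK, a chromatin protein that can act as a chaperone of H3.3, fell 1.65-fold (203 ± 5.65 to 123 ± 17.8 FPKM, adjusted p = 0.00172).

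Genes expressed around S phase are given beside the histone genes because clustered histone transcription follows DNA replication. Of 20 such markers, 0 rose and 17 fell by limma, against a background of 30.6% higher and 21.4% lower. The list median log2 difference was -0.59, against 0.07 over all tested genes. TYMS, for thymidylate synthase, fell 2.24-fold (259 to 115.5 FPKM, adjusted p = 0.000881), CCNA2, for cyclin A2, 1.75-fold (76 to 43.4 FPKM, adjusted p = 3.5e-05), and GINS1, part of the replicative helicase, 1.68-fold (14.1 to 8.39 FPKM, adjusted p = 0.000225). The 3 markers that did not pass were CDC6, RRM2 and CDK2. The part of the S-phase markers in the changes of the histone genes was not tested. MCM2 belongs to both this list and that of the replication-coupled chaperones.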

How the data were processed

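RNA was measured by RNA sequencing in 6 libraries, 3 per group, made with an mRNA kit that keeps strand (per the labels' protocols). The authors deposited FPKM values, with a column for each library. HISAT, Trimmomatic, cutadapt, FastQC and genome build hg38 appear in the submitters' processing notes. Which program and annotation gave the FPKM values, and whether strand was used, is not given in the sources. Control columns were matched to samples by number, since their letters stand in the other order in the sample descriptions. Values of 0 made up 4.88% of the table, and the depth per library is unknown.

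The 12143 of 16376 genes averaging 1 FPKM or more were tested on log2(FPKM + 1), by limma 3.58.1 (R 4.3.3) with a group term, a variance trend, two-sided tests and Benjamini-Hochberg adjustment over all genes tested, at a threshold of 0.05. The log2 scale understates changes of low genes. Steps were tested on simulated data. Python 3.11.15 with pandas 2.3.3, numpy 2.4.6 and matplotlib 3.10.9 served for the rest. Coordinates and transcripts came from GENCODE 29 (GRCh38, all 77 genes matched), promoters from RefSeq GRCh38.p14 (64 of 77 matched). A window of 100 bases was called shared when identical to one in a transcript of another gene whose symbol starts as those of the members do. Only the longest transcript of each member was scanned, and sharing with other genes was not searched. Every member with a mean of at least 1 FPKM could be named, the 3 highest of the rest, up to 4 called genes with the largest log2 difference per list, and pairs with starts within 1000 bases. Further genes are marked or named because a count of theirs is small. Of the genes this rule names, 1 is not reported here. The members and the lists were chosen with earlier results of these data known. Alternatives were a pseudocount of 0.1, no filter, a mean of at least 5 FPKM, median-ratio scaling, quantile normalization, no variance trend, a replicate block and leaving out each library. The division by 3′ end signal was added after the data were seen.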

Additional observations from a re-analysis of the deposited data

How the results depend on the processing

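The main counts were 13 histone genes higher and 8 lower with Agrimol B. Over the 6 fits that left out 1 library, 7 to 11 were higher and 5 to 9 lower, 4 to 7 clustered genes were higher and 2 to 5 lower, and 12 to 19 of the 21 calls were kept. The lowest counts came without the second control library (8 higher, 5 lower) and without the third (7 higher, 5 lower). With a mean of at least 5 FPKM, fewer genes were tested, and 6 histone genes were higher, among them 2 clustered genes, 3 clustered genes were lower and 1 S-phase marker was higher. With no filter 8 clustered genes were lower. Median-ratio scaling and quantile normalization gave 4 lower genes each on the list of histone mRNA transcription and processing (1 in the main analysis) and 0 higher replication-coupled chaperones (1 in the main analysis), and the cause was not tested. Leaving out 1 library gave 0 to 3 lower genes on the former list, 0 to 1 higher genes on the latter and 0 to 1 higher S-phase markers. Median-ratio scaling put the summed variant FPKM at 1219 in control and 1197 with Agrimol B (1196 and 1230.0 as deposited), and over all tested genes it gave 3089 higher and 3148 lower calls, against 3713 and 2598. Libraries share replicate numbers, but same-numbered libraries did not deviate together (r = 0.04, -0.01 and -0.01 across genes), so the numbers were not taken as pairs. With a replicate block, 10 histone genes were higher and 10 lower, 5 variant genes were lower, with H2AFZ (adjusted p = 0.0151) and H2AFY (adjusted p = 0.0364) added and H2AFX, H2AFV and H3F3A kept, HIST3H2A, HIST1H2BJ and HIST1H4H lost their calls (adjusted p = 0.0916, 0.0704 and 0.0871), and 0 genes of the mRNA processing list were lower. HIST1H2AE, which did not pass in any setting, changed sign without the third control library (log2 difference 0.09) and without the first Agrimol B library (0.13), in a range of -0.18 to 0.13 over the fits that left out 1 library. Of 421 values of single histone genes over the alternatives, 360 kept direction and side of the threshold, 52 lost the call, 7 gained one and 2 changed sign. Depth is unknown, so differences among genes under 1 FPKM were not judged by counting error, and 43 of 77 members were too low to enter the tests.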
